A study of Homo sapiens with 31 samples.

Results

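The comparison set untreated cells of 2 established human lymphoma lines, TMD8 and RIVA, against each other. Its 6 RNA-seq libraries, 3 per line, came from a series of 31 libraries and were chosen by label: TMD8 or RIVA cells with the genotype WT that had received DMSO, the solvent control, for 10 h. Both lines are labelled ABC DLBCL, the activated B-cell-like form of a common aggressive lymphoma, and no drug was given to these 6 cultures. The labels do not say that the replicates were separate cultures, so every p-value measures the spread between these libraries, which may be technical. A further 12 libraries of the same lines, treated for 10 h with 10 nM ibrutinib (an inhibitor of the kinase BTK) or 60 uM Rhosin (an inhibitor of the GTPase RHOA), 3 per line and drug, were used to see how the line difference stood in other libraries.

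Activated B-cell-like lymphoma resembles a B cell stopped on its way to becoming a plasma cell. It typically lives on signals that run from the B-cell receptor and Toll-like receptor adaptors through kinases such as BTK to NF-kB, and it depends on IRF4, a transcription factor that NF-kB raises. Lines of this lymphoma class carry different mutations, losses and gains, and therefore enter a drug experiment from different starting levels of the same pathways.

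Gene names could be used for only a fraction of the rows. The 63140 rows of the deposited count tables carry gene IDs, and the IDs match the levels of the genes they name only inside 7 segments, on chromosomes 4, 5, 6, 9, 11, 18 and 19. Spearman's rho between mean TMD8 DMSO counts and the levels of the same symbols in the authors' deposited log2 table of WT TMD8 cells (under the PI3K inhibitor copanlisib) was 0.898 over 868 genes inside the segments and 0.07 over 16791 genes outside. The segments held 3021 rows, of which 901 genes passed a check of level: 558 were expressed in TMD8 (at least 1 CPM, counts scaled to 1000000 per library), and 343 were low in both TMD8 sets. Genes are named only from these 901, all other rows stay unnamed, and positions are those of GENCODE v29 on GRCh38. The check was made in TMD8, so a name of a gene that is low in TMD8 is unchecked in RIVA. It could not be separated from the comparison, because an expressed gene had to reach 1 CPM in TMD8 and not in RIVA.

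The 6 libraries held 8923131 to 14153796 counts. Rows whose IDs name mitochondrial genes took 25.97% to 30.23% of them in TMD8 and 27.62% to 28.08% in RIVA. Intervals and floors given below cover counting error only; the reads had no molecular identifiers. Defining B-cell genes were present in both lines: the label-checked members of a list of B-cell markers summed to 6527 to 8265 CPM in TMD8 and 7139 to 7876 CPM in RIVA, and markers of T and NK cells summed to at most 1.468 CPM. The 5 markers of epithelium summed to 122.9 to 131.2 CPM in TMD8 and 120.7 to 160.5 CPM in RIVA, with no member at 0 counts; PKP3, a desmosomal plakophilin that lies beside SIGIRR, was higher in TMD8 (3.42, or 4.03 without RIVA replicate 3), and CRB3 (-1.75) and EPS8L2 (-0.95) were higher in RIVA. Of the 6 markers of neutrophils and monocytes, AZU1, PRTN3 and ELANE were at 0 counts in TMD8, and PRTN3 and ELANE in RIVA.

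The third RIVA library stood apart from the other two. Its Pearson correlation with the TMD8 libraries (log2 CPM) was 0.8394 to 0.8424, against 0.7808 to 0.7936 for RIVA replicates 1 and 2, and its correlation with those replicates was 0.977 and 0.976, against 0.9892 between them. Across all libraries, 7 rows were above 30 CPM in each TMD8 library and below 0.5 CPM in each of the other 8 RIVA libraries, with an HBL1 median under 1 CPM. In the third RIVA DMSO library these rows stood at 6.25% to 11.28% of their TMD8 level, with a median of 8.51%. Their medians in the other 8 RIVA libraries were 0 to 0.1523%, a low level that the choice of rows had fixed. Among the RIVA libraries, only the third DMSO library was left free by that choice. For 10 rows that mark HBL1, another line of the series, the median in this library was 0.02244% of the HBL1 level. What lies behind this was not tested. For the genes named below whose linear fold moved by more than 1.5 times when this library was left out, values with and without it are given.

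**Figure D1:**
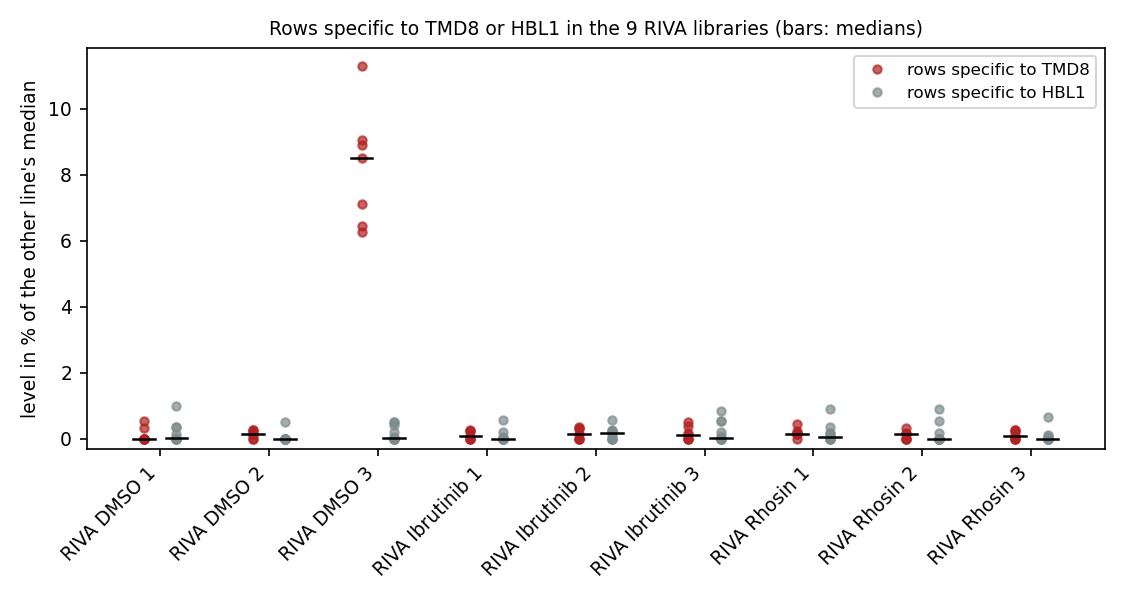
Level of 7 rows specific to TMD8 (red) and 10 rows specific to HBL1 (grey) in each of the 9 RIVA libraries, in percent of the median level in the other line; each point is a row and each bar a median. The TMD8 rows sit at 6.25% to 11.28% in RIVA DMSO replicate 3, and their medians are at or below 0.1523% in the other 8 libraries. The rows were chosen to be low in those 8 libraries.

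A large share of what could be measured differed between the lines. Of 11453 rows tested with edgeR's quasi-likelihood test (Benjamini-Hochberg adjusted p under 0.05), 3282 were higher in TMD8 and 3791 higher in RIVA, together 61.8% of the rows. The size of this split depended on scaling: when the library factors were taken from rows inside the segments only, 2513 rows were higher in TMD8 and 4742 in RIVA, and the median log2 fold change of all rows moved from -0.06 to -0.27. Of the 589 label-checked genes that entered the test, 255 were higher in TMD8 and 199 higher in RIVA, which is 77.1%. Their CPM values did not overlap between the lines for 469 genes (79.6%), against 67.2% of all rows tested. At least 1 on the log2 scale separated the lines in 255 label-checked genes that passed the test, and 34.9% of all rows did so. Fold changes below are log2 values, positive where TMD8 was higher.

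Surface receptors and adaptors of the B-cell receptor differed in both directions. Of 9 tested members of this list, 5 were higher in TMD8, 2 were higher in RIVA and 2 did not pass. The median was 1.03, against -0.06 for all rows, of which 28.7% were higher in TMD8 and 33.1% higher in RIVA. The tested members lie on chromosomes 4, 9 and 19, whose segments had medians of -0.80, 0.58 and 0.83. Both members higher in RIVA, CD38 and RHOH, lie on chromosome 4, and those higher in TMD8 on chromosomes 9 and 19. The part of the chromosome in these values was not tested. CD38, an enzyme on the surface of activated B cells and plasma cells that consumes NAD+ (chromosome 4, 15778275 to 15853230, plus strand), measured 4.29, 2.73 and 3.84 CPM in TMD8 and 381, 395 and 309 CPM in RIVA. The groups were far apart, and CD38 was low but detected in all 3 TMD8 libraries. The log2 fold change was -6.60 (SE 0.184, adjusted p = 7.31e-10). VAV1, an exchange factor that carries receptor signals to RAC (chromosome 19, 6772714 to 6857366, plus strand), measured 743, 876 and 794 CPM in TMD8 and 152, 160.1 and 217 CPM in RIVA. Every TMD8 library was above every RIVA library, with a difference of 2.22 (SE 0.149, adjusted p = 3.65e-07), and 2.44 without RIVA replicate 3. CD72, a co-receptor that dampens B-cell receptor signals, measured 221, 425 and 297 CPM in TMD8 and 104, 111 and 139 CPM in RIVA, with the 3 TMD8 libraries spread more widely than those of RIVA and none overlapping them. It was higher in TMD8 by 1.44 (SE 0.208, adjusted p = 9.74e-05).

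The adaptors followed no single direction. RHOH, a GTPase of blood cells that is needed for antigen receptor signalling in T cells (chromosome 4, 40191053 to 40246967, plus strand), measured 287, 243 and 243 CPM in TMD8 and 641, 675 and 692 CPM in RIVA, and was higher in RIVA (-1.35, SE 0.115, adjusted p = 2e-06). ARHGAP45 was higher in TMD8 by 2.22, the adaptor STAP2 by 1.69 and the adaptor SHB by 1.03. SIT1, a transmembrane adaptor of lymphocytes, measured 224, 399 and 351 CPM in TMD8 and 222, 344 and 275 CPM in RIVA; these values overlapped and the difference of 0.24 (SE 0.202, adjusted p = 0.333) did not pass. SH3GL1 (-0.04) did not pass either. These are bulk libraries, in which fewer cells with a gene and less RNA per cell cannot be told apart.

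**Figure D2:**
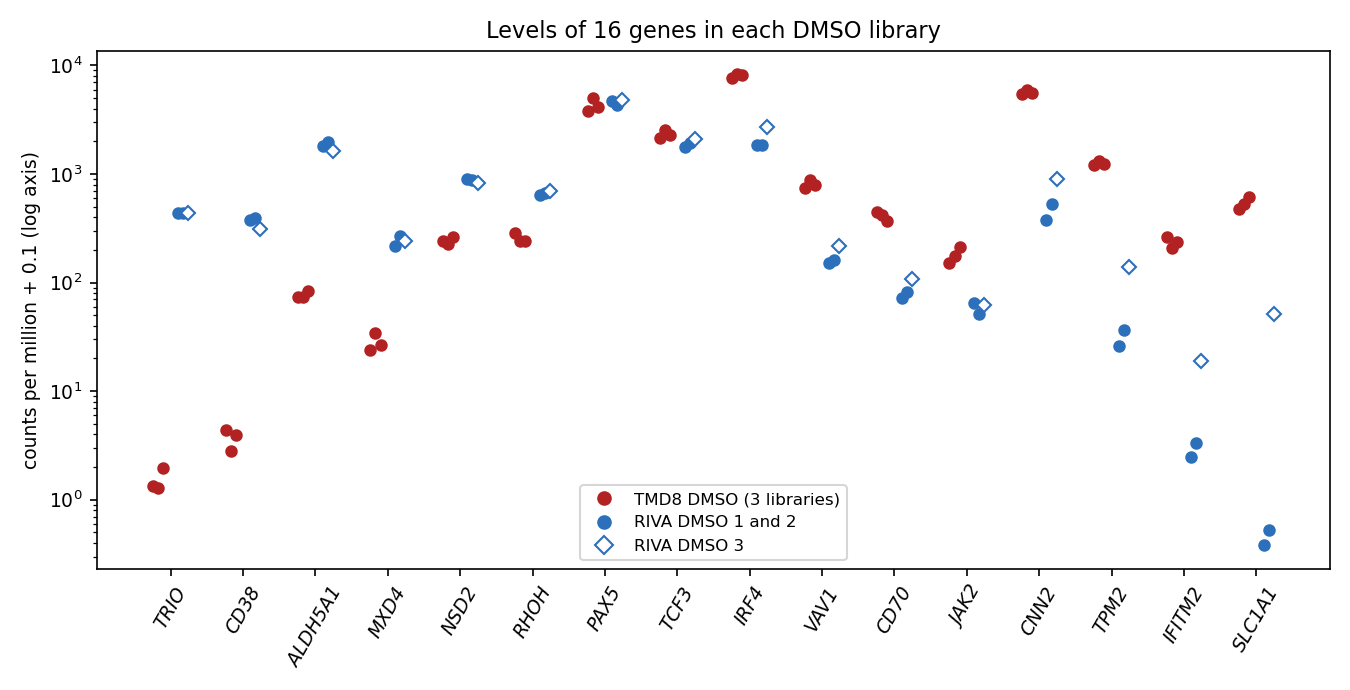
CPM plus 0.1 (log axis) of 16 genes in each DMSO library: red circles are the 3 TMD8 libraries, blue circles RIVA replicates 1 and 2, open diamonds RIVA replicate 3. TRIO is near the bottom of the plot in TMD8 and SLC1A1 in RIVA replicates 1 and 2. CD38 in TMD8 and IFITM2 in RIVA replicates 1 and 2 are low as well, while PAX5 overlaps between the lines. RIVA replicate 3 lies toward TMD8 for TPM2, IFITM2 and SLC1A1.

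IRF4, the transcription factor on which this lymphoma class depends, was abundant in both lines and higher in TMD8. It lies on chromosome 6, 391739 to 411447, plus strand, and measured 7716, 8285 and 8224 CPM in TMD8 and 1832, 1844 and 2708 CPM in RIVA. The lowest TMD8 library was well above the highest RIVA library, which was replicate 3. The log2 fold change was 1.95 (SE 0.148, adjusted p = 8.84e-07), or 2.20 without that library. Of the 13 tested members of the list of NF-kB, TNF receptor and IRF genes, 6 were higher in TMD8, 3 higher in RIVA and 4 did not pass, with a median of -0.08. The background was 255 of 589 label-checked genes higher in TMD8 and 199 in RIVA. Beside IRF4, the higher members in TMD8 were GADD45B, a stress-response gene that NF-kB induces (1.68), HIVEP1, a zinc finger protein that binds kB motifs (1.32), CARD6 (1.14), TNFAIP8L1 (1.05) and TNIP2, a partner of the NF-kB inhibitor A20 (0.51). SERPINB9, an inhibitor of the cytotoxic protease granzyme B, measured 115, 101 and 123 CPM in TMD8 and 289, 306 and 284 CPM in RIVA and was higher in RIVA (-1.35, SE 0.107, adjusted p = 1.2e-06). OTULIN, which removes linear ubiquitin chains and so restrains NF-kB, was higher in RIVA as well (-0.84), as was SIGIRR (-0.49). RIPK1, the kinase at the TNF receptor, measured 127, 113 and 118 CPM in TMD8 and 133, 118 and 135 CPM in RIVA, with overlapping values and a difference of -0.08 (SE 0.108, adjusted p = 0.551) that did not pass. The call of TNIP2 was lost when RIVA replicate 2 (adjusted p = 0.0755) or TMD8 replicate 1 or 2 (0.0842 and 0.0712) was left out, and with factors from the segments only (0.157). With those factors, this list had 5 members higher in TMD8 and 7 higher in RIVA.

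TNF family ligands and cytokine genes were few at this depth. CD70, a TNF family ligand that activated B cells display to CD27, measured 443, 422 and 367 CPM in TMD8 and 72.5, 81.9 and 107 CPM in RIVA, with no overlap and a difference of 2.27 (SE 0.16, adjusted p = 4.72e-07). TNFSF9, the ligand of the co-stimulatory receptor 4-1BB, was higher in TMD8 by 0.98. The other 4 tested members of this list of 18 label-checked genes were higher in RIVA: IL11RA, a cytokine receptor chain (-1.33), TWSG1, which modulates BMP signals (-0.89), and BMP6 and FGFR3. BMP6, a growth factor of the BMP family, measured 0.226, 0 and 0.197 CPM in TMD8 and 28.7, 24 and 29.8 CPM in RIVA, and FGFR3, a fibroblast growth factor receptor, measured 0, 0.13 and 0.0984 CPM in TMD8 and 1.265, 2.71 and 1.99 CPM in RIVA; both are low in TMD8, so they could enter the test only through RIVA. BMP6 lies beside TXNDC5, also higher in RIVA, and reads could be shared.

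Of the 5 tested members of the list of Toll-like receptors and innate sensors, 4 were higher in RIVA, none in TMD8, and TLR6 (-0.25) did not pass. The 3 receptors among them, TLR1, TLR6 and TLR10, lie on chromosome 4, where 53 of 72 tested genes were higher in RIVA with a median of -0.80; the part of the chromosome in their values was not tested. TLR10, a receptor of B cells without a settled ligand, measured 63.9, 76.9 and 92.9 CPM in TMD8 and 131, 142 and 104 CPM in RIVA, a difference of -0.67 (SE 0.145, adjusted p = 0.00186). TLR1, which pairs with TLR2 on bacterial lipoproteins, measured 9.37, 10.5 and 13.3 CPM in TMD8 and 18.1, 23.5 and 12.3 CPM in RIVA. The third RIVA library of TLR1 lay among the TMD8 values, and the difference was -0.67 (SE 0.227, adjusted p = 0.0224). This call was lost without RIVA replicate 2 (adjusted p = 0.112) and without TMD8 replicate 1 or 2 (0.0811 and 0.0652). LY86, the partner of the receptor CD180 on B cells, measured 18.2, 18.9 and 17.1 CPM in TMD8 and 51.2, 69.4 and 49.2 CPM in RIVA, with no overlap (-1.62, SE 0.154, adjusted p = 4.42e-06). SIGIRR, a receptor that restrains Toll-like receptor signalling, was the other member. LY86 and TLR1 also stand among the 6 markers of neutrophils and monocytes, whose summed level was 28.56 to 32.78 CPM in TMD8 and 66.46 to 98.17 CPM in RIVA, with PRTN3 and ELANE at 0 counts in both lines.

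The next list covered plasma cells, a state beyond the activated B cell, and the secretory pathway. Of its 7 tested members, 4 were higher in RIVA and 2 in TMD8, with a median of -0.76. Beside this, 33.1% of all rows and 199 of 589 label-checked genes were higher in RIVA, and a list of 7 is small. CD38, described above, belongs to this list too and lies on chromosome 4, where 53 of 72 tested genes were higher in RIVA. TXNDC5, a disulfide isomerase of the endoplasmic reticulum, measured 146, 134 and 129.9 CPM in TMD8 and 357, 288 and 365 CPM in RIVA, with no overlap (-1.27, SE 0.124, adjusted p = 5.38e-06). SSR1, part of the complex at the translocon (-0.80), and BSG, a chaperone of lactate transporters (-0.76), were also higher in RIVA. MYDGF (0.79) and VCP, the ATPase that extracts proteins for degradation (0.68), were higher in TMD8, and CREB3 (0.14) did not pass.

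Among lymphoid transcription and chromatin factors, 11 of 23 tested members were higher in TMD8, 7 higher in RIVA and 5 did not pass, with a median of 0.12 that became -0.09 with factors from the segments only. Over all 589 label-checked genes, 255 were higher in TMD8 and 199 in RIVA. PAX5, which keeps cells in the B lineage, measured 3797, 4985 and 4172 CPM in TMD8 and 4716, 4293 and 4822 CPM in RIVA; the values overlapped and the difference was -0.07 (SE 0.115, adjusted p = 0.628). With factors from the segments only, PAX5 passed as higher in RIVA (-0.28, adjusted p = 0.0409). NSD2, a methyltransferase of histone H3, measured 240.1, 225 and 261 CPM in TMD8 and 893, 882 and 822 CPM in RIVA. All RIVA libraries were above all 3 TMD8 libraries (-1.81, SE 0.103, adjusted p = 1.02e-07). MXD4, a partner of MAX that represses at the sites MYC would use, measured 23.8, 34.2 and 26.6 CPM in TMD8 and 218, 268 and 244 CPM in RIVA, with no overlap (-3.08, SE 0.152, adjusted p = 3.53e-08). JARID2, a subunit of Polycomb repressive complex PRC2 (-1.80), RFX3 (-1.50), and E2F3, a driver of S phase entry (-0.60), were also higher in RIVA.

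The factors higher in TMD8 included a Kruppel-like repressor and a chromatin remodeler. KLF3 measured 26.3, 30.4 and 30.8 CPM in TMD8 and 2.32, 1.95 and 4.3 CPM in RIVA, without overlap (3.41, SE 0.239, adjusted p = 4.92e-07). SMARCA2, an ATPase of the SWI/SNF remodeling complex, measured 2246, 1695 and 1952 CPM in TMD8 and 612, 578 and 705 CPM in RIVA (1.67, SE 0.133, adjusted p = 1.25e-06). ARID3A, which binds enhancers of immunoglobulin genes, was higher by 1.69, MLLT1, a reader in the super elongation complex, by 1.60, the corepressor TLE5 by 1.40, MBD3 of the NuRD complex by 1.30 and the H3K79 methyltransferase DOT1L by 0.50. NFIB, a nuclear factor I protein, was low in RIVA, with 4.29, 2.99 and 7.38 CPM in TMD8 and 0.281, 0.254 and 0.839 CPM in RIVA and a difference of 3.52 (SE 0.472, adjusted p = 5.6e-05), or 4.21 without RIVA replicate 3. NFIB could enter the test only through TMD8. TCF3, which encodes the E proteins E12 and E47, differed by 0.29 (SE 0.11, adjusted p = 0.0374), a call that was lost without RIVA replicate 1 (adjusted p = 0.169), RIVA replicate 2 (0.0998) or TMD8 replicate 2 (0.142), and with factors from the segments only (0.505). SOX4 (0.07) and MLLT3 (0.07) did not pass.

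Genes with the largest differences were also ranked among the expressed ones. The 12 higher in RIVA with the largest change were TRIO (-8.20), CD38, ALDH5A1 (-4.52), GPLD1 (-4.37), STX18 (-4.33), AQP3 (-4.23), PDZD2 (-3.79), PLEKHG4B (-3.64), APBB2 (-3.61), BTN1A1 (-3.43), MXD4 and NFIC (-2.98). TRIO, an exchange factor that activates RAC1, RHOG and RHOA (chromosome 5, 14143702 to 14532128, plus strand), measured 1.24, 1.171 and 1.87 CPM in TMD8 and 440.4, 438 and 437 CPM in RIVA. The RIVA libraries lay within a few CPM of each other and the TMD8 libraries were near 1 CPM. The log2 fold change was -8.20 (SE 0.167, adjusted p = 8.03e-11). ALDH5A1, which oxidizes succinic semialdehyde, measured 73, 74.1 and 83.9 CPM in TMD8 and 1799, 1981 and 1625 CPM in RIVA, a difference of -4.52 (SE 0.125, adjusted p = 7.14e-10). AQP3, a channel for water and glycerol, measured 0.677, 1.43 and 1.97 CPM in TMD8 and 22.4, 32.6 and 24.3 CPM in RIVA, also without overlap (-4.23, SE 0.284, adjusted p = 3.63e-07). Reads of neighbours could be shared for ALDH5A1 and GPLD1, for STX18, for PLEKHG4B and for APBB2, because another coding gene lies within 2000 bases.

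On the TMD8 side the 12 genes were TLE6, RAI14, CDH9, RAB31, ACER1, AFAP1-AS1, SLC1A1, IFITM2, ZNF556, ANKRD18B, ZNF77 and GNA15, and the third RIVA library set the size of the difference for most of them. SLC1A1, a transporter of glutamate and cysteine (chromosome 9, 4490444 to 4587469, plus strand), measured 477, 530.4 and 609 CPM in TMD8 and 0.281, 0.424 and 51.5 CPM in RIVA. RIVA replicates 1 and 2 were near 0, whereas replicate 3 stood between them and TMD8. The log2 fold change was 5.04 (SE 1.15, adjusted p = 0.00264), and 10.62 without that library. ACER1, an alkaline ceramidase, measured 29.4, 30.7 and 29.5 CPM in TMD8 and 0.0703, 0 and 2.62 CPM in RIVA, a difference of 5.31. RIVA replicates 1 and 2 together held 1 count of ACER1, and the ratio of TMD8 to them was 651.8 (95% counting interval 116.7 to 25780).

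For 4 more of these genes RIVA replicates 1 and 2 held no count, so that TMD8 was at least 152.9-fold higher for ANKRD18B, at least 44.22-fold for TLE6, a protein of the Groucho family, and at least 11.74-fold for CDH9, a cadherin, each against a floor of 3 counts over these 2 libraries. RAI14, an actin-binding protein, was at least 21.29-fold higher on the same terms. Each of these 4 was named and tested only through TMD8, where it had to reach 1 CPM, so its direction was fixed by the choice. The same holds for SLC1A1, ACER1, GNA15, RAB31, AFAP1-AS1 and ZNF77. With replicate 3 counted, the ratio was 91.41 for TLE6 (95% counting interval 24.9 to 761.2), 88.02 for RAI14 (15.34 to 3521) and 48.53 for CDH9 (8.257 to 1961), and the fitted difference of ANKRD18B was 4.89. GNA15, the G protein subunit that couples many receptors of blood cells to phospholipase C, measured 20.7, 56.6 and 53.9 CPM in TMD8 and 0.351, 0.848 and 4.61 CPM in RIVA, a difference of 4.67 (SE 0.594, adjusted p = 3.8e-05), or 6.27 without RIVA replicate 3. ZNF556 moved from 4.91 to 8.60 without it. RAB31, a GTPase of endosomes (5.31), AFAP1-AS1, an RNA antisense to AFAP1 (5.22), and ZNF77 (4.87) each held 2 counts in RIVA replicates 1 and 2, with ratios of 67.56 (18.41 to 562.5), 131 (35.97 to 1087) and 48.31 (13.08 to 403.6). Without that library, 459 of 599 label-checked genes passed, beside 61.6% of all rows, and 437 of them were among the 454. The linear fold changed by more than 1.5 times in 22 label-checked genes, and all 22 were higher in TMD8.

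The short arm of chromosome 9 held gene groups of both kinds. At 9p24, 9 of 16 tested genes were higher in TMD8, 1 was higher in RIVA and 6 did not pass, with a median of 0.78. Of all 125 tested genes of the chromosome 9 segment, 74 were higher in TMD8 and 21 higher in RIVA, with a median of 0.58, so that the share at 9p24 was close to that of the whole segment. JAK2, the kinase of cytokine receptors (chromosome 9, 4984390 to 5128183, plus strand), measured 153, 175 and 215 CPM in TMD8 and 64.9, 51.4 and 62.3 CPM in RIVA. Every TMD8 library was above every RIVA library (1.63, SE 0.135, adjusted p = 1.65e-06). PDCD1LG2, which encodes the PD-1 ligand PD-L2 (chromosome 9, 5510570 to 5571254, plus strand), measured 3.27, 2.34 and 3.35 CPM in TMD8 and 0.0703, 0.17 and 0.105 CPM in RIVA. The RIVA values were near 0 and the difference was 4.62 (SE 0.434, adjusted p = 3.93e-06), or 4.63 without RIVA replicate 3. PDCD1LG2 could enter the test only through TMD8, so its direction was fixed by the choice. KDM4C, a demethylase of histone H3 lysine 9, was higher by 1.07 and VLDLR, a lipoprotein receptor, by 1.31. KANK1, a regulator of actin at adhesions, was the member higher in RIVA (-0.61). UHRF2 (-0.22), RIC1 (-0.20) and ERMP1 (0.18), which lie in the same band, did not pass. RNA counts carry no copy number, and a part of copy number in these levels was not tested.

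At 9p21 the contrast ran the other way for a short run of neighbours. CDKN2A, which encodes the cell cycle inhibitor p16 and the p53 activator ARF (chromosome 9, 21967753 to 21995301, minus strand), measured 0.339, 0 and 0.197 CPM in TMD8 and 206, 245 and 232 CPM in RIVA. TMD8 held 5 counts in all against 8036 in RIVA. MTAP, the enzyme of methionine salvage next to it (chromosome 9, 21802543 to 21937651, plus strand), measured 0.452, 0.13 and 0.295 CPM in TMD8 and 136, 114 and 99.1 CPM in RIVA, from 8 and 4229 counts. CDKN2B, the p15 inhibitor, held 0 counts in TMD8 and 170 in RIVA, so RIVA was at least 50.21-fold higher (floor of 3 counts over the 3 TMD8 libraries). CDKN2B-AS1, an antisense RNA that overlaps CDKN2A, had 2 and 972 counts, a ratio of 430.7 (95% counting interval 118.9 to 3561). The edgeR log2 fold changes were -10.14 (SE 0.268, adjusted p = 5.78e-10) for CDKN2A and -8.53 (SE 0.257, adjusted p = 1e-09) for MTAP.

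The low level in TMD8 was not limited to the DMSO libraries. The 9 TMD8 libraries held 18 counts of CDKN2A, 14 of MTAP and 0 of CDKN2B. HBL1 held 291 counts of CDKN2A and 650 of MTAP under DMSO. Genes on either side were expressed in both lines: KLHL9 (-0.18) and FOCAD (0.30) did not pass (FOCAD passed without RIVA replicate 3, adjusted p = 0.0475, and without TMD8 replicate 1, 0.0136), and HACD4 (1.36), CAAP1 (0.57) and PLAA (0.58) were higher in TMD8. Other genes of the list around 9p21 were higher in RIVA. IFT74, a protein of intraflagellar transport, measured 6.77, 7.28 and 6.1 CPM in TMD8 and 35.8, 34 and 27.4 CPM in RIVA, without overlap (-2.25, SE 0.166, adjusted p = 7.03e-07); it lies beside PLAA, and reads could be shared. DENND4C (-0.68) and PLIN2 (-0.34) were also higher in RIVA, and the call of PLIN2 was lost without any 1 of RIVA replicates 1 and 2 and TMD8 replicates 1 and 2 (adjusted p = 0.0821 to 0.102). CNTLN, a centrosomal protein farther toward the chromosome end (chromosome 9, 17134982 to 17503923, plus strand), again had 1 count in TMD8 and 1034 in RIVA, a ratio of 916.3 (interval 164.1 to 36220). Whether DNA was lost in TMD8 was not tested, since these files hold RNA counts only. The list of genes at and around 9p21 had 17 label-checked members, of which 14 were tested. HAUS6, PLIN2, DENND4C and RPS6, at 19053143 to 19380254, lie toward the chromosome end and outside the band. Of the 14 tested, 5 were higher in TMD8 and 6 higher in RIVA. The direction of 3 of these 6, CDKN2A, CDKN2B and MTAP, was fixed by the choice, since genes low in TMD8 enter the test only through RIVA.

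**Figure D3:**
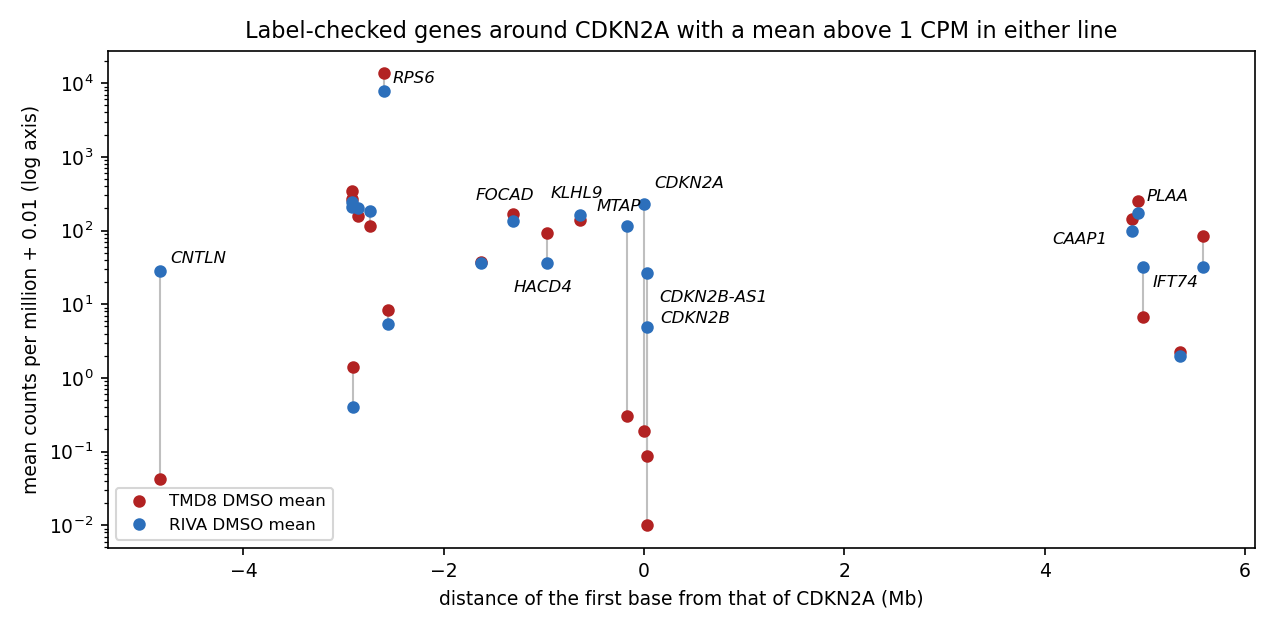
Mean CPM plus 0.01 (log axis) in TMD8 DMSO (red) and RIVA DMSO (blue) of label-checked genes on both sides of CDKN2A that exceed 1 CPM in either line, against the distance of the gene's first base from that of CDKN2A. MTAP, CDKN2A, CDKN2B-AS1, CDKN2B and the distant CNTLN are far below RIVA in TMD8. IFT74 is lower in TMD8 by a smaller distance, and FOCAD, KLHL9, CAAP1 and PLAA lie close together.

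Other genes that are low in TMD8 and abundant in RIVA were FOXC1, PTPRS, ZNF518B and SMIM24. FOXC1, a forkhead transcription factor, measured 0.226, 0.39 and 0.295 CPM in TMD8 and 448, 405 and 417 CPM in RIVA (-10.38, SE 0.189, adjusted p = 3.55e-11). PTPRS, a receptor tyrosine phosphatase, measured 0.113, 0.26 and 0.492 CPM in TMD8 and 125, 180 and 126 CPM in RIVA (-8.83, SE 0.296, adjusted p = 1.94e-09). ZNF518B had 2 counts in TMD8 and 2807 in RIVA, a ratio of 1244 (95% counting interval 344 to 10270), and SMIM24 measured 0.226, 0 and 0.394 CPM in TMD8 and 21.4, 39.6 and 28.3 CPM in RIVA. All 4 were well separated between the lines. Their names rest on IDs that could be checked only by a level near 0 in TMD8. Of the 33 low genes tested, 30 were higher in RIVA and none in TMD8, a direction fixed by the choice, since a gene low in TMD8 reaches the test only through RIVA.

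Antiviral membrane genes were much higher in TMD8 than in RIVA. IFITM2 and IFITM3 restrict the entry of viruses at membranes and are induced by interferon. IFITM2 (chromosome 11, 307631 to 315272, plus strand) measured 263, 207 and 234 CPM in TMD8 and 2.39, 3.22 and 18.7 CPM in RIVA. RIVA replicate 3 was well above the other two RIVA libraries, and no RIVA library reached TMD8. The difference was 4.97 (SE 0.563, adjusted p = 1.59e-05), or 6.46 without that replicate. IFITM3 measured 29.4, 23.8 and 24 CPM in TMD8 and 1.05, 1.44 and 2.52 CPM in RIVA, again without overlap (4.02, SE 0.262, adjusted p = 2.9e-07), or 4.44 without it. The genes of this family are close paralogs and could exchange reads.

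The promoter of IFITM3 is printed because the label-checked family members moved together and interferon-regulated promoters are known for repeats of GAAA. It comes from the RefSeq promoter table on GRCh38.p14, covers chr11:320861-321110 on the minus strand (the 250 bases before the annotated start), and has the motif GAAANNGAAA, searched on both strands, in capitals.
IFITM3 promoter: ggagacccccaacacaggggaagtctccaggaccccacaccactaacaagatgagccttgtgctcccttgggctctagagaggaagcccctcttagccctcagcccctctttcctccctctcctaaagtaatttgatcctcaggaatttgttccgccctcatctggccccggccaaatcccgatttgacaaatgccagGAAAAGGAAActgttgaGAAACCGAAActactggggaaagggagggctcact
The 2 matches begin at bases 199 and 216 and do not overlap. In the same table, 3.57% of 35116 promoters of 300 bases hold at least 1 match and 0.259% hold 2 or more. A match describes letters and says nothing of a factor's binding in these cells.

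The other interferon-induced genes moved less. HFE, a regulator of iron uptake, measured 7.11, 7.15 and 7.78 CPM in TMD8 and 2.18, 5.76 and 2.62 CPM in RIVA. RIVA replicate 2 came near the TMD8 values, and the difference was 1.09 (SE 0.319, adjusted p = 0.0112). BTN3A2 (-0.62) and BTN3A1 (-0.33), butyrophilins recognized by gamma delta T cells, were higher in RIVA; the call of BTN3A1 was lost without RIVA replicate 2 or 3 or TMD8 replicate 2 or 3 (adjusted p = 0.0549 to 0.109). Of 7 tested members, 3 were higher in TMD8, 2 higher in RIVA and 2 did not pass. Among all 589 label-checked genes, 255 were higher in TMD8 and 199 in RIVA.

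Among actin and myosin regulators, 5 of 12 were higher in TMD8 and 3 higher in RIVA, beside 255 and 199 of all 589 label-checked genes. CNN2, the calponin of blood cells, measured 5496, 5892 and 5590.1 CPM in TMD8 and 377, 532 and 892 CPM in RIVA, without overlap (3.26, SE 0.257, adjusted p = 1.14e-06), and 3.71 without RIVA replicate 3. TPM2, a tropomyosin, measured 1206, 1329 and 1236 CPM in TMD8 and 26.2, 36.7 and 140.2 CPM in RIVA. RIVA replicate 3 was again the highest of its group, and the difference of 4.25 (SE 0.522, adjusted p = 2.94e-05) became 5.39 without it. TLN1, which links integrins to actin, was higher in TMD8 by 1.07, the myosin light chain MYL12A by 1.07 and the scaffold NEDD9 by 1.27. TESK1 (-0.67) and ADD1 (-0.46) were higher in RIVA, and WDR1, a cofactor of cofilin (0.04), did not pass. The list's median of 0.15 became -0.06 with factors from the segments only.

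Nuclear genes of mitochondria and ribosomes were more often higher in TMD8 than in RIVA. Beside this, 28.7% of all rows and 255 of 589 label-checked genes were higher in TMD8. Of these 589, 556 had to reach 1 CPM in TMD8 to be named. Of 20 tested genes of the respiratory chain and other mitochondrial proteins, 15 were higher in TMD8, 2 higher in RIVA and 3 did not pass, with a median of 0.89. NDUFS7, a subunit of complex I, measured 586, 701 and 580.4 CPM in TMD8 and 126, 137 and 214 CPM in RIVA, without overlap (2.00, SE 0.19, adjusted p = 4.33e-06). TIMM13, a carrier chaperone of the intermembrane space (2.07), UQCR11 of complex III (1.93), the protease LONP1 (1.83) and SDHA of complex II (0.75) were also higher. SIRT5, a desuccinylase (-0.71), and LETM1 (-0.68) were higher in RIVA. Of the 9 tested ribosomal proteins and translation factors, 7 were higher in TMD8, none in RIVA and 2 did not pass, with a median of 0.83. RPS15 measured 8073, 8531 and 6757 CPM in TMD8 and 1348, 1242 and 2044 CPM in RIVA (2.36, SE 0.186, adjusted p = 1.13e-06). RPL36 was higher by 2.16, the elongation factor EEF2 by 0.90, RPS6 by 0.83, RPL37 by 0.75 and RPLP2 by 0.67. RPL9 (0.19) did not pass.

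Position and base composition moved with these lists. Of the 20 mitochondrial genes, 8 lie on chromosome 19, as do 3 of the 9 ribosomal proteins and translation factors, RPS15, RPL36 and EEF2. On that chromosome, 87 of 140 tested genes were higher in TMD8 and 25 higher in RIVA, with a median of 0.83. Chromosome 9 had a median of 0.58 and chromosome 4 a median of -0.80, where 8 of 72 genes were higher in TMD8 and 53 higher in RIVA. The other segments had medians of 0.17 on chromosome 11, 0.15 on chromosome 5, -0.01 on chromosome 18 and -0.25 on chromosome 6. Across 556 expressed genes, which share libraries and are not independent, Spearman's rho between GC content of the longest transcript and the log2 fold change was 0.159, and with its length -0.173. The 185 genes with the highest GC content had a median of 0.61, against 0.09 for the 186 with the lowest. Among the former, genes of chromosome 19 had a median of 0.86 and those of chromosome 4 a median of -1.08. The part of base composition or of the chromosome in the lists' values was not tested.

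Cell cycle genes were more often higher in RIVA than in TMD8. Of 19 tested members, 9 were higher in RIVA, 5 higher in TMD8 and 5 did not pass, with a median of -0.27. For comparison, RIVA was the higher line in 33.1% of all rows and TMD8 in 28.7%. Among the 589 tested genes with checked names, RIVA led in 199 and TMD8 in 255. Whether this list departs from these shares was not tested. TACC3, a protein of the mitotic spindle, measured 168, 164 and 155 CPM in TMD8 and 357, 400.4 and 396 CPM in RIVA (-1.22, SE 0.107, adjusted p = 2.48e-06). SKP2, which targets the inhibitor p27 for degradation, measured 179.5, 139.8 and 185 CPM in TMD8 and 372, 331 and 305 CPM in RIVA, also without overlap (-0.97, SE 0.129, adjusted p = 5.19e-05). ANAPC4 (-0.92), GMNN, the inhibitor of replication licensing (-0.79), CDC34 (-0.78) and UHRF1, which maintains DNA methylation (-0.50), were higher in RIVA too; UHRF1 did not pass with all 27 libraries in the fit (adjusted p = 0.245). LMNB2, a lamin of the nuclear envelope, was higher in TMD8 (1.95), as were FZR1, an activator of the anaphase-promoting complex (0.55), and TRIP13 (0.45), which did not pass with all 27 libraries in the fit (adjusted p = 0.131). Growth rates were not measured in these files.

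In lipid and aldehyde metabolism, 7 of 19 tested members were higher in TMD8 and 6 higher in RIVA, beside 255 and 199 of all 589 label-checked genes. LPCAT1, which remodels phosphatidylcholine, measured 1597, 1596 and 1440.1 CPM in TMD8 and 495, 423 and 589.8 CPM in RIVA (1.65, SE 0.136, adjusted p = 1.53e-06). GMDS, the first enzyme of GDP-fucose synthesis, measured 41, 39.7 and 39.8 CPM in TMD8 and 175, 159 and 169 CPM in RIVA (-2.03, SE 0.103, adjusted p = 4.27e-08). These 2 genes moved in opposite directions with no overlap in either. ALDH1B1, a mitochondrial aldehyde dehydrogenase (2.17), and B4GALT1 (1.28) were higher in TMD8, and MBOAT1, an acyltransferase without a count in RIVA replicates 1 and 2, was at least 56.23-fold higher against them, with a fitted difference of 4.55 over all 3 RIVA libraries. MBOAT1 could enter the test only through TMD8. ELOVL2, an elongase of polyunsaturated fatty acids (-1.82), and PNPLA2, the lipase of lipid droplets (-0.66), were higher in RIVA.

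Of 27 tested genes at 18p, 8 were higher in each line. For this list and the next, the background was 255 of 589 label-checked genes higher in TMD8 and 199 in RIVA. MYOM1, a muscle protein, measured 166, 159 and 129 CPM in TMD8 and 12.65, 19.9 and 29.9 CPM in RIVA (2.91, SE 0.254, adjusted p = 2.29e-06). ENOSF1 was higher in TMD8 by 1.04, whereas TYMS, the thymidylate synthase it partly overlaps, was higher in RIVA (-0.60, not passing with all 27 libraries in the fit, adjusted p = 0.14), as was IMPA2 (-1.53). Of 15 genes of ribosome assembly, 6 were higher in TMD8, among them POLR1E of RNA polymerase I (1.25) and PUM3 (1.04), and 2 higher in RIVA, LYAR (-0.72) and NOP14 (-0.59). TERT, the telomerase reverse transcriptase, was higher in TMD8 (0.66, SE 0.135, adjusted p = 0.00119), and its neighbour CLPTM1L higher in RIVA (-0.59, SE 0.099, adjusted p = 0.000313).

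**Figure D4:**
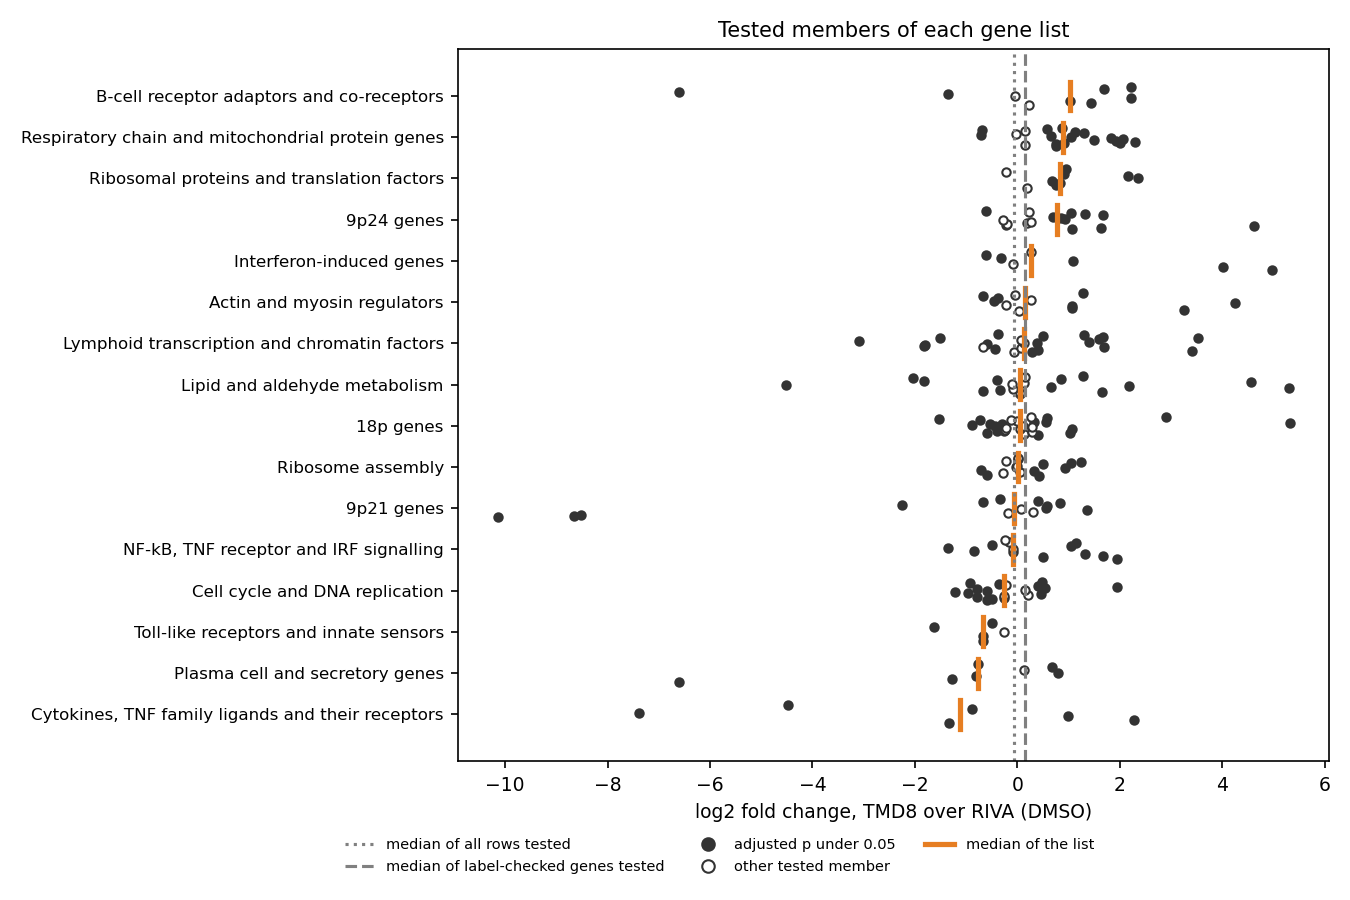
Log2 fold change of TMD8 over RIVA for the tested members of 16 gene lists: filled points passed an adjusted p under 0.05, open points did not, and orange bars are list medians. Grey lines mark the median of all rows tested (-0.06) and of all label-checked genes tested (0.16). The list of B-cell receptor adaptors lies highest with a median of 1.03 and the list of cytokines lowest with -1.11; 2 of the 6 cytokine members, BMP6 and FGFR3, are low in TMD8 and entered the test only through RIVA.

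The same line contrast was then made in libraries that the DMSO comparison did not use. Under ibrutinib, 479 of 587 label-checked genes tested passed (280 higher in TMD8 and 199 higher in RIVA), beside 66.1% of all rows. Under Rhosin, 507 of 599 passed (301 and 206), beside 69.9% of all rows. Of the 454 genes called under DMSO, 392 were called in the same direction under ibrutinib and 392 under Rhosin, which is 86.3% of the DMSO calls, 81.8% of the ibrutinib calls and 77.3% of the Rhosin calls. In all 3 comparisons 377 genes were called in 1 direction (222 higher in TMD8, 155 in RIVA). CD38 stayed lower in TMD8, with -5.31 under ibrutinib and -5.21 under Rhosin, as did TRIO (-6.68 and -6.41). IRF4 stayed higher in TMD8 (2.23 and 1.62), as did JAK2 (2.28 and 2.23).

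Among the genes called both under DMSO and under the drug, the sign was opposite in 6 under ibrutinib and 12 under Rhosin; genes called in only 1 of the comparisons are not counted here. TLR10 went from -0.67 under DMSO to 0.51 under Rhosin, a tested difference of 1.06 (SE 0.19, adjusted p = 0.000487). BTN3A1 went from -0.33 to 0.46 under ibrutinib and 0.29 under Rhosin. BRIX1, a factor of ribosome assembly, went the other way, from 0.42 (a call lost with factors from the segments only, adjusted p = 0.183) to -0.35 and -0.50. The DMSO call of BTN3A1 was lost without single libraries, as stated above. The interaction was -1.04 (SE 0.202, adjusted p = 0.000972) for BRIX1 under Rhosin.

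**Figure D5:**
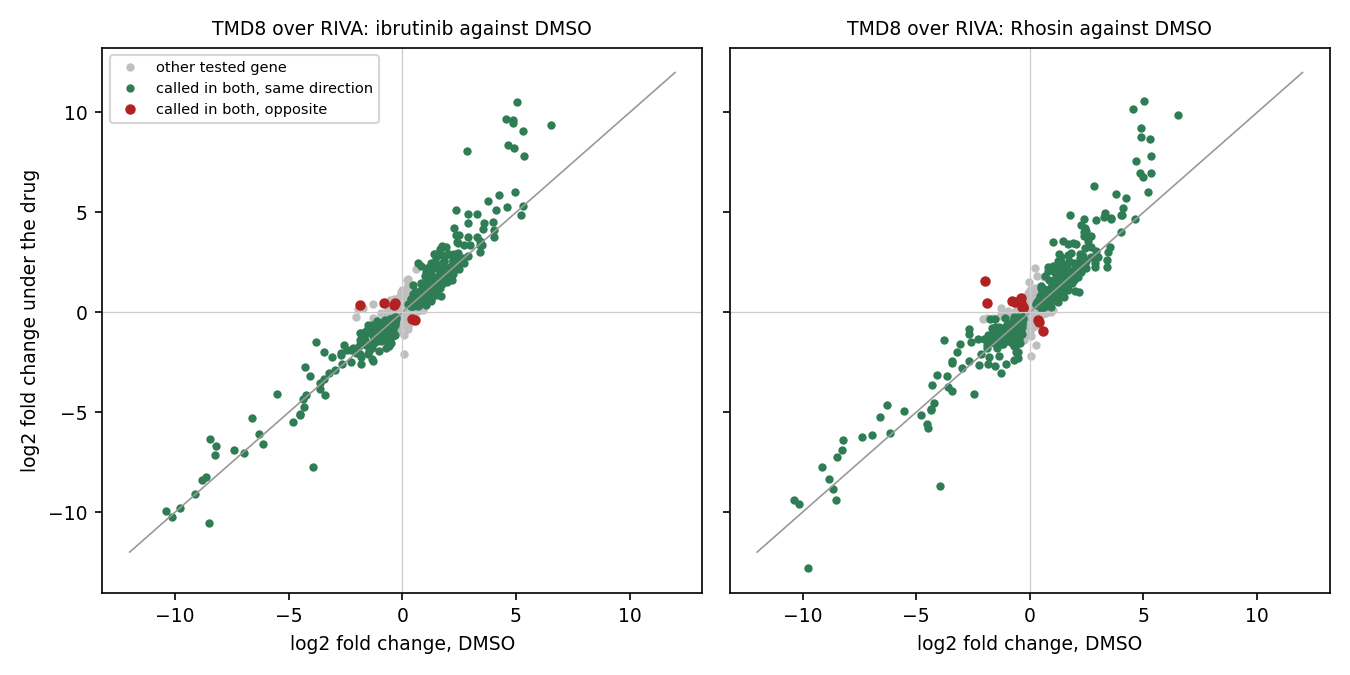
Log2 fold change of TMD8 over RIVA under ibrutinib (left) or Rhosin (right) against that under DMSO, each point a label-checked gene, with the line of equality. Green genes were called in both comparisons with the same sign (392 in each panel) and red genes with opposite signs (6 and 12).

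Whether the size of the line difference itself changed was tested as an interaction of line and treatment over the 18 libraries. Under ibrutinib it passed for 132 of 608 label-checked genes, beside 11.7% of all rows, and under Rhosin for 184, beside 18% of all rows. Both interactions share the DMSO libraries and are not independent of each other. NAT8L, which makes N-acetylaspartate, measured 20.2, 26.9 and 22.6 CPM in TMD8 and 21.5, 21.8 and 25.1 CPM in RIVA, with overlapping values and a line difference of 0.06. The difference became -2.10 under ibrutinib and -2.21 under Rhosin, an interaction of -2.22 (SE 0.249, adjusted p = 1.33e-05) for ibrutinib. SIT1, which did not differ past the threshold under DMSO, was higher in TMD8 under both drugs (1.69 and 2.23), an interaction of 1.39 (SE 0.322, adjusted p = 0.00778) for ibrutinib.

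Several signalling genes had a wider gap under a drug, each past the interaction test for the drug named. CD72 widened from 1.44 to 2.93 and 3.58, GADD45B from 1.68 to 3.15 and 3.41, and SHB from 1.03 to 3.52 under Rhosin. On the RIVA side, RHOH went from -1.35 to -2.34 and -2.21, TXNDC5 from -1.27 to -2.44 and -3.05, and UHRF1 from -0.50 to -1.55 and -2.27. LY86 narrowed from -1.62 to -0.28 under Rhosin. Without the third RIVA DMSO library, 134 of 614 label-checked genes passed for ibrutinib, beside 11.1% of all rows, and 174 for Rhosin, beside 16.5%. Of 213 tested list members, 67 passed for ibrutinib and 87 for Rhosin with all libraries, and 70 and 85 without that one.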

How the data were processed

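RNA-seq was analysed in 6 TMD8 and RIVA DMSO libraries, and in the 12 drug-treated libraries of the same lines. Per the labels' protocols, stranded libraries were sequenced paired-end. The submitters' processing notes name bcl2fastq, cutadapt, STAR, RSEM and Picard with the builds GRCh37 and hg19; which version of each, and what each did, is not stated in what was used here. The authors deposited raw counts per gene ID, 1 table per line, and log2 values of scaled counts for WT and knock-in TMD8 cells; only the WT columns of that table were used, for the check of names.

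Tables were joined on gene ID. Names came from IDs inside the 7 segments where the symbol was in the log2 table and the level lay within 2 log2 units of the Theil-Sen trend between both, or was low in both. Of the genes with a level in both tables, 127 failed. The IDs follow the levels with an offset in places, so a row can lack some exons of its gene, and 302 expressed genes have another coding exon within 2000 bp. Rows were filtered with filterByExpr, scaled by TMM and tested with edgeR 4.0.16 (glmQLFit, glmQLFTest; R 4.3.3), with Benjamini-Hochberg adjustment over all rows tested. CPM values in the text are counts divided by the TMM-scaled library total, times 1000000. Those TMM factors were taken over 27 libraries, HBL1 included. Only the level check of names divided by the unscaled total. Log2 fold changes carry SEs from the fit. On simulated counts for this comparison, 169 of 200 changed genes (84.5%) were recovered among 11453 rows, with 26 false calls. The DMSO comparison itself called 61.8% of its rows, a far larger share than was changed in the simulation. Whether the simulated rates hold at that share was not tested.

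The genes named were the 12 expressed genes with the largest change in each direction whose libraries do not overlap, the 6 low genes most abundant in RIVA, and members of 18 lists, of which 1 is not reported here. Genes singled out for their interaction were chosen after their values were seen. The members and lists were chosen with earlier results of these data known. Alternatives were other scalings, DESeq2 1.42.0, other filters, pooled fits, the replicate number as a block, and leaving out single libraries; the interaction without RIVA DMSO replicate 3 was added after seeing the data.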

Additional observations from a re-analysis of the deposited data

Results flagged for a closer look

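The results below stand here because the difference between the lines was itself different under a drug, by the interaction test of edgeR over the 18 TMD8 and RIVA libraries. Both drugs are compared with the same DMSO libraries, so a deviation of a DMSO library enters both. The test passed for 132 label-checked genes with ibrutinib and 184 with Rhosin.

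Among the genes with the largest line differences, SLC1A1 had interactions of 5.41 with ibrutinib and 5.44 with Rhosin. Without RIVA DMSO replicate 3 they were -0.15 (adjusted p = 0.933) and -0.13 (adjusted p = 0.937). GNA15 had 3.62 and 2.79, and without that library 2.05 (adjusted p = 0.289) and 1.22 (adjusted p = 0.471). ZNF77 had 4.59 with ibrutinib, and 3.80 (adjusted p = 0.14) without it. For these 3 genes the calls rested on that library.

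For the genes higher in RIVA, the interactions named next also passed without it. The line difference of TRIO was smaller in size under both drugs, by 1.45 and 1.67, and that of CD38 by 1.22 and 1.27. For PDZD2 the values were 2.22 and 2.30, and for MXD4 0.80 and 1.39. The difference of ALDH5A1 was larger in size, with -0.65 and -1.18, and that of STX18 with -0.69 under Rhosin. Reads of ALDH5A1 and STX18 could be shared with neighbouring genes.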

How the results depend on the processing

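For the DMSO comparison, the alternatives called 5140 (at least 50 counts in 3 libraries) to 8604 rows (no filter on low counts), against 7073, and DESeq2 called 7198. Leaving out single libraries gave 6610 to 7534 rows and 422 to 459 label-checked genes, against 454. The corresponding ranges were 7410 to 8152 rows and 448 to 491 genes under ibrutinib, and 8188 to 8750 rows and 486 to 511 genes under Rhosin. With the level check at 1 log2 unit, 295 label-checked genes were called (151 higher in TMD8), because fewer genes pass that check. Factors from the segments only moved the share of calls higher in TMD8 from 46.4% to 34.6%; under them the list medians of lymphoid factors, actin regulators, 18p, ribosome assembly, the telomerase locus and lipid metabolism changed sign, 21 of the 233 genes checked gained a call, all as higher in RIVA (among them PAX5, KLHL9, RIC1, UHRF2, RIPK1, SH3GL1 and TLR6), and 10 higher in TMD8 lost theirs (NSUN2, TCF3, USP14, BRIX1, KLF16, NAPG, HAUS6, TNIP2, ACER2 and ZBTB7A, adjusted p = 0.123 to 0.505). With all 27 libraries in the fit, 10 genes lost their call, among them UHRF1, TRIP13 and TYMS, and 1 gained one. With factors from the segments only, the members higher in TMD8 and in RIVA numbered 4 and 11 for the cell cycle and 9 and 4 at 9p24. They numbered 7 and 1 for ribosomal proteins, 15 and 2 for mitochondrial proteins and 0 and 5 for Toll-like receptors. Of 233 genes checked, 175 kept their side of the threshold under every alternative run and 0 passed it in the opposite direction. The sign of a gene that did not pass could change. WDR18, a ribosome assembly gene, moved from 0.02 to -0.20 with factors from the segments only. Of the 30 largest, ANKRD18B was lost under DESeq2 (adjusted p = 0.0869), and MBOAT1, a list member, too (0.0661).

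Under DMSO, same-numbered libraries did not deviate together: their deviations correlated at 0.0284, -0.0403 and -0.203. RIVA replicate 3, which stood apart, is among them, and the drug libraries were not examined this way. Whether the replicate numbers pair the samples is therefore not settled. With the replicate block, 6444 rows and 426 label-checked genes were called under DMSO, against 7073 rows without it. Under ibrutinib it called 8006 rows (against 7872) and 487 genes, and under Rhosin 8800 rows (against 8607) and 516 genes. For the interactions it called 1967 and 2710 rows (163 and 209 label-checked genes), against 1547 and 2373 rows. The block thus lowered the calls under DMSO and raised the others.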
